A study of Caenorhabditis elegans with 5 samples.

Results

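Adult nematodes (Caenorhabditis elegans) fed the same control bacteria were compared at 2 ages: the control library came from the third day of adulthood and the young adult library from the first. They are 2 of the 5 libraries of a series on tumours of the germ line and were taken by their sample titles, 1 library each. The control animals of day 3 and the young adults of day 1 ate L4440, bacteria with the empty RNAi vector, were kept at 20 °C and received no RNAi against a worm gene. The other 3 libraries came from animals fed bacteria with double-stranded RNA against gld-1: one of day 3, and a fed and a fasted one of day 4 after 48 h on L4440 plates or on plates without food. Each library pooled whole animals, ca. 3000 of them from 2 experiments, and each age is 1 library, so a difference between the ages has no replicate check and no p-value is given. Strain, sex and any means of blocking reproduction are not given in the labels, nor is it stated whether eggs inside or beside the animals were removed beyond washing. Of 45461 gene identifiers in the tables, 10825 were measured, meaning that the mean of the control and the young adult library was at least 50 normalised reads.

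As background, C. elegans is mostly a self-fertilising hermaphrodite whose germ line makes sperm first, late in larval life, and then turns to oocytes for good. The sperm genes are transcribed while sperm form, so their RNA marks the sperm-making phase and its close. Oocytes are filled with yolk made by the intestine and with maternal RNA, are fertilised in the spermatheca and gain their eggshell there, and young embryos stay in the uterus for some hours. The cells of the adult body no longer divide and the cuticle is not shed again, so the germ line and the embryos hold the dividing cells, while the skin, muscle, gut and nerve cells are those formed in the larva.

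The control library held 27547808 gene reads and the young adult library 15426039, and 17962 and 18681 identifiers had reads. Ribosomal RNA took 27.8% of the reads in the control library and 3.51% in the young adult library, while it took 25.4% to 27.3% in the 3 gld-1 RNAi libraries. The young adult library thus stood apart from the other 4 in rRNA, and the part of this in the results below was not tested. The control library also held more of a few RNAs that usually carry no poly(A) tail: the RNase P RNA rpr-1 stood at 253 normalised reads in the control and 22.9 in the young adult, and the signal recognition particle RNA srpr-2.2 at 377 in the control and 24.2 in the young adult. The labels were checked against markers: the adult collagen col-19 was found in both libraries, and gld-1, the target of RNAi in the other groups, stood at 24395 normalised reads in the control and 20243 in the young adult (log2 fold 0.27, of either sign over the scalings named next). With all 5 libraries put on 1 scale, which is used wherever more than the 2 ages are given, gld-1 was at 20407 in the control, at 1597 to 3071 in the gld-1 RNAi libraries and at 17651 in the young adult.

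Fold changes are log2 of control over young adult, each plus 1 normalised read, so a positive value is higher on day 3. Of the measured genes, 1966 (18.2%) passed 2-fold with the control higher and 2781 (25.7%) passed it with the control lower, and 6078 lay within 2-fold. Large differences were mostly on the lower side: past 10-fold there were 121 higher and 844 lower genes, and 241 genes with at least 100 normalised reads in the young adult had 0 reads in the control, against 4 the other way. The median gene lay at 0.19. The split of the genes past 2-fold depends on the scaling: 41.4% of them were higher here, and 14.2% with equal read totals (all folds 0.56 lower). The equal read totals, here and below, include the rRNA reads. With equal totals outside rRNA, all folds were 0.14 lower and 32.9% were higher. The share was 24.9% with equal upper quartiles and 48.4% with the median of ratios of the 2 libraries. Of the genes past 2-fold, 174 higher and 1059 lower genes had 33.3 normalised reads or fewer in one library and could pass the minimum only by differing (here called forced by the minimum). For part of the gene lists the sum over all listed members is therefore also given. In whole animals, fewer cells of a type and less RNA per cell cannot be told apart. The values are relative to the other RNA of a library, so more RNA from other tissues cannot be told apart from either.

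**Figure D1:**
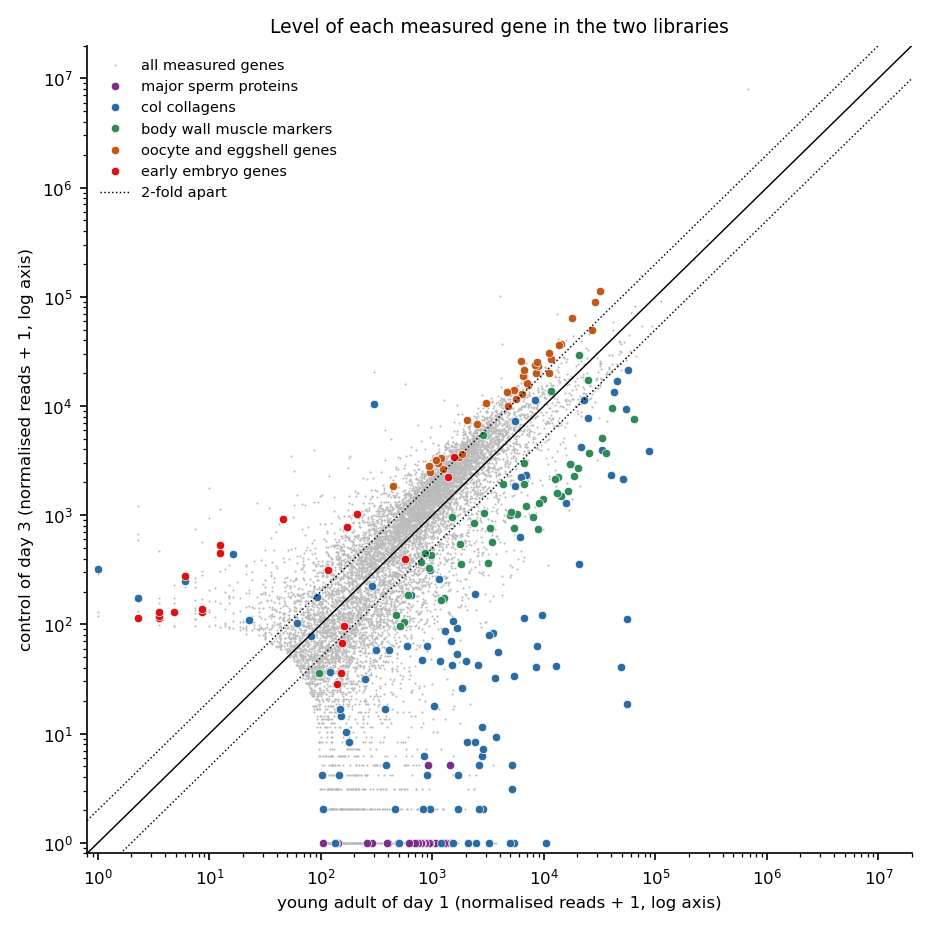
Each point is 1 of 10825 measured genes, with its normalised reads plus 1 in the young adult library (x axis, log) and in the control library (y axis, log); the solid line is equality and the dotted lines 2-fold. Major sperm protein genes (purple) lie at or near 0 in the control, col collagens (blue) and body wall muscle genes (green) mostly lie below the lines, and oocyte genes (orange) and most early embryo genes (red) above.

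RNA of the major sperm proteins was all but absent on day 3. The 31 listed major sperm protein (msp) genes, which encode the small protein that lets the amoeboid sperm crawl and signals to oocytes, summed to 9.43 normalised reads in the control and 20295 in the young adult library. Of the 25 measured msp genes, 23 had 0 reads in the control. msp-49 had 0 reads in the control and 1508 normalised reads in the young adult, at least 480-fold lower against a floor of 3 reads, and msp-33 had 0 in the control and 1458 in the young adult. Each of these 25 passed the minimum only through the young adult library. With genes at 0 set to their bound the median log2 fold was -7.97 (-9.55 without the bound). The msp copies are close to identical, so reads may be split between them or lost, but their sum is not touched by a split.

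Other genes of sperm formation and function were mostly low on day 3 as well. The 54 listed genes of sperm function summed to 4504 normalised reads in the control and 21994 in the young adult. Among those measured, 30 of 35 were at least 2-fold lower, 25 of them forced by the minimum, and 0 were higher. gsp-3, a sperm-specific phosphatase of the PP1 type, had 0 reads in the control and 1102 normalised reads in the young adult, at least 351-fold lower. ssq-4 and ssq-2, sperm-specific family genes, had 2 and 0 reads in the control and 2353 and 1278 normalised reads in the young adult. The 5 measured members within 2-fold were ssp-37, spe-44, spe-39, spe-5 and spe-48, and spe-39, which works in vesicle traffic in many cells, stood at 1906 in the control and 1378 in the young adult (log2 fold 0.47, of either sign over the scalings).

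The Argonautes alg-3 and alg-4, which load small RNAs in spermatogenesis, had 1 read each in the control, against 957 and 1046 normalised reads in the young adult (log2 fold of alg-3 -8.87, with a 95% counting interval of -15.14 to -7.35, and an interval of -15.27 to -7.48 for alg-4). The H3 variant his-70 had 0 reads in the control and 113 normalised reads in the young adult, at least 36.0-fold lower. These 3 genes were chosen after their values were seen. They stand in lists of other functions. Of the 37 measured Argonaute and small RNA factors 12 were at least 2-fold higher (4 with equal read totals), 22 within 2-fold and 3 lower. Over all measured genes 18.2% were higher and 25.7% lower. In this list nrde-3, a nuclear Argonaute, stood at 2649 in the control and 486 in the young adult (log2 fold 2.44). Genes among the lowest 10 of all named genes included nsph-3.2, nsph-3.1, gipc-2, sss-1 and ttbk-8.2, each with 0 reads in the control, and nsph-3.2, of a nematode-specific peptide family, had 4875 normalised reads in the young adult.

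By contrast, genes that decide the sperm or oocyte fate were not lower. Among 15 listed sex determination and sperm fate genes, 9 of the 14 measured were at least 2-fold higher and 0 lower, with a median of 1.07, but 1 was past 2-fold with equal read totals. tra-1, the last gene of the sex determination cascade, which promotes female fates, stood at 3571 normalised reads in the control and 624 in the young adult (log2 fold 2.52). fog-3, needed for germ cells to become sperm, was under the minimum in both, at 8.38 in the control and 19.1 in the young adult, within counting error (interval -2.63 to 0.14). Across the 5 libraries fog-3 stood at 7.01 in the control, 165 in gld-1 RNAi of day 3, 279 in the fed library, 99.4 in the fasted one and 16.6 in the young adult.

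Oocyte and eggshell genes were higher on day 3 together. All 36 listed genes were measured and lay above 0, 32 of them at least 2-fold higher, with a median of 1.43 and a range of 0.86 to 2.08. With equal read totals the median was 0.87 and 10 passed 2-fold, and with equal upper quartiles 24 did. They summed to 790247 normalised reads in the control and 285781 in the young adult, or 3.79% of the reads outside rRNA in the control and 1.51% in the young adult. Eggshell chondroitin proteoglycans were among them: cpg-2 stood at 112914 in the control and 31606 in the young adult (log2 fold 1.84, interval 1.82 to 1.86), and cpg-3 at 26070 in the control and 6251 in the young adult (2.06). cbd-1, a chitin-binding eggshell protein, was at 90466 in the control and 28750 in the young adult (1.65). rme-2, the yolk receptor of oocytes, stood at 37127 in the control and 14170 in the young adult (1.39), and puf-5, a Pumilio-family repressor of translation in oocytes, at 30781 in the control and 11082 in the young adult (1.47).

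Across the 5 libraries the oocyte genes were highest in the control, with a sum of 661077, against 231262 in gld-1 RNAi of day 3, 191862 in the fed library, 286112 in the fasted one and 249194 in the young adult. So for oocyte genes the control of day 3 was the library apart, and the young adult lay within the range of the gld-1 RNAi libraries. For the major sperm proteins and the col collagens it was the young adult that stood apart.

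Most measured genes listed for transcription in early embryos were higher on day 3. The 58 listed genes summed to 11999 normalised reads in the control and 4818 in the young adult. Across the 5 libraries they summed to 10038 in the control, 3917 to 4580 in the gld-1 RNAi libraries and 4201 in the young adult. The sum thus includes members with many reads outside the control. One of them, lin-26, stood at 2224 in the control and 1378 in the young adult (log2 fold 0.69). Among the 21 measured, 15 were at least 2-fold higher, 10 of these forced by the minimum, and 3 lower, with 1 forced. The median was 3.90, but 1.73 with equal read totals and 2.16 with a minimum mean of 200. pes-10, transcribed early in somatic embryonic cells, stood at 118 in the control and 2.55 (2 reads) in the young adult (log2 fold 5.07, interval 3.65 to 8.60). sdz-28 stood at 276 in the control and 5.09 in the young adult (interval 4.38 to 7.64), and tbx-37, a T-box factor of early blastomeres, at 113 in the control and 1.27 (1 read) in the young adult (5.65, interval 3.97 to 11.79). Among all 5 libraries tbx-37 was at 94.7 in the control and between 1.11 and 4.17 in the other 4. The earliest gut specification genes had too few reads to compare: end-1 had 1 read in each library, end-3 had 7 in the control and 3 in the young adult, and med-1 and med-2 had 0 in both.

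**Figure D2:**
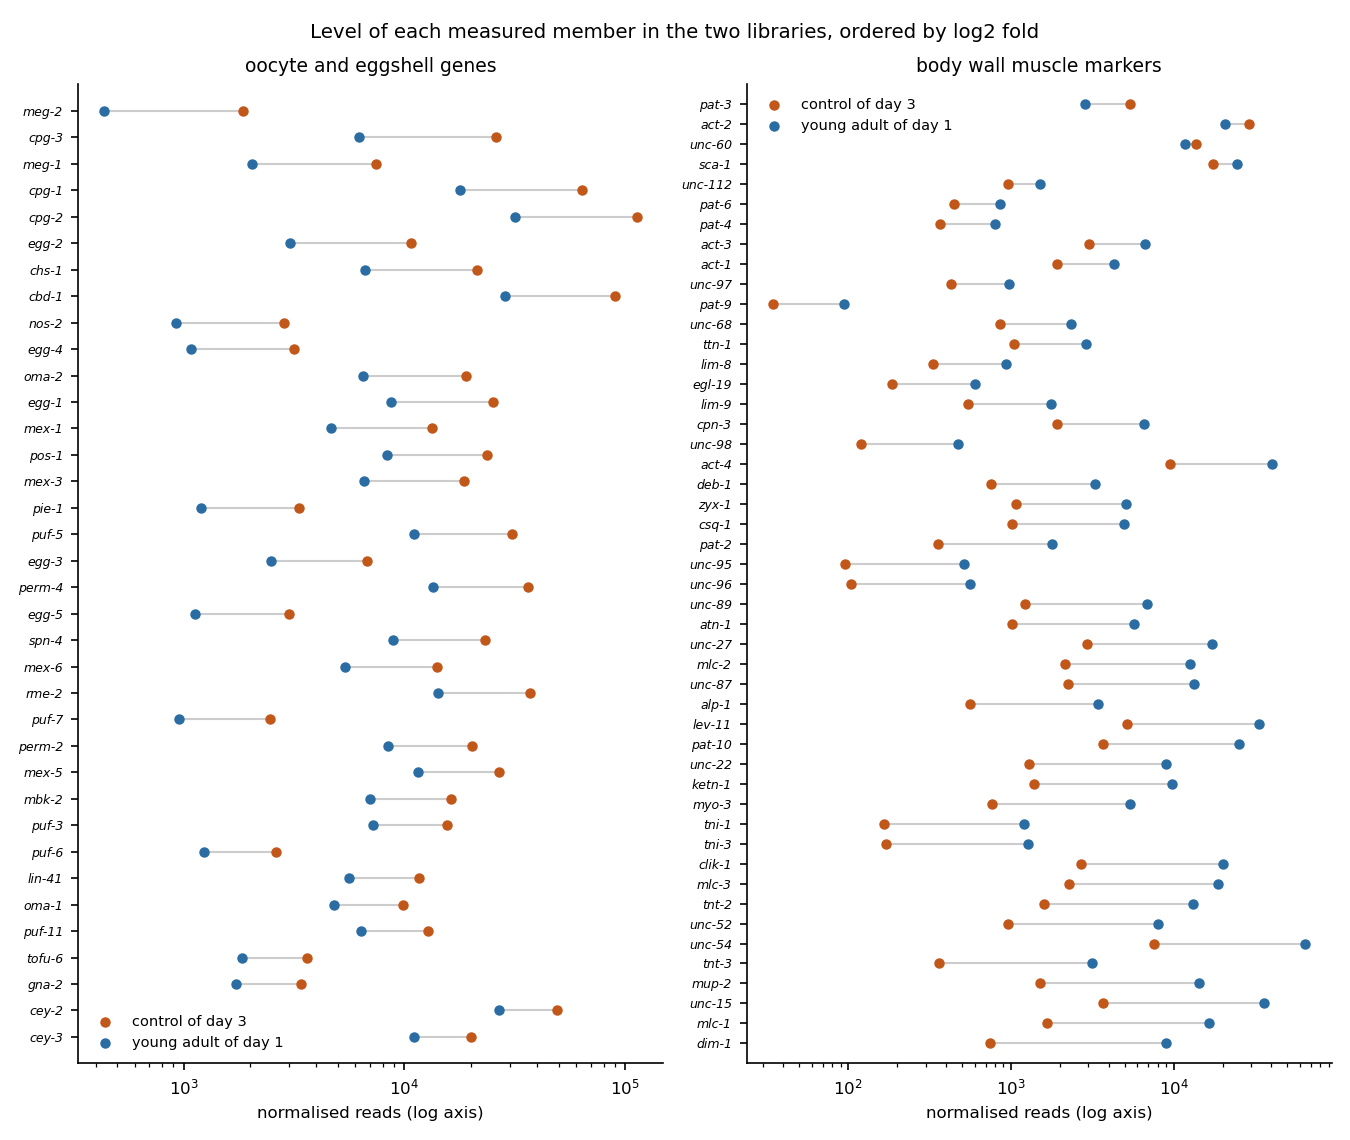
Normalised reads (log axis) of each measured oocyte and eggshell gene (left, 36 genes) and body wall muscle marker (right, 48 genes), ordered by log2 fold, in the control of day 3 (orange) and the young adult (blue). The control is higher for all 36 oocyte genes, and lower for 45 of the 48 muscle markers.

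Genes of DNA replication and cell division were higher on day 3 as well. Of 60 listed replication and mitosis genes, 59 were measured, all of them above 0 and 44 at least 2-fold higher (median 1.15). With equal read totals the median was 0.60 and 3 passed 2-fold, and with equal upper quartiles 18 did. They summed to 407080 normalised reads in the control and 173306 in the young adult. rnr-2, the small subunit of ribonucleotide reductase, stood at 19006 in the control and 6185 in the young adult (log2 fold 1.62), and cyb-3, a B-type cyclin, at 22903 in the control and 9403 in the young adult (1.28). rfc-2, of the clamp loader of replication, stood at 2989 in the control and 985 in the young adult. Of the 5 libraries the young adult was lowest for this list, with 151118, against 340540 in the control and 229461 to 249169 in the gld-1 RNAi libraries.

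Germline stem cell genes were higher in part. Of the 17 listed, all measured, 9 were at least 2-fold higher and 0 lower. glp-1, the Notch receptor that keeps germ cells in mitosis, stood at 10927 in the control and 3837 in the young adult (log2 fold 1.51). Its targets lst-1 and sygl-1 followed at 1.58 and 1.63, with sygl-1 at 3572 in the control and 1156 in the young adult. fbf-1, a PUF repressor that acts beside them, differed less, at 851 in the control and 610 in the young adult (0.48, of either sign over the scalings).

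Among 37 meiosis genes, 9 were at least 2-fold higher and 0 lower (median 0.78), and the chk-2 kinase of meiotic prophase stood at 782 in the control and 223 in the young adult (log2 fold 1.81). Of the 26 germ granule genes, 10 were at least 2-fold higher and 0 lower (median 0.82). The spread within that list was wide: the maternal granule genes meg-4 and meg-2 were at 2.25 and 2.08, while cgh-1, a germline RNA helicase, stood at 49375 in the control and 41233 in the young adult (0.26, of either sign over the scalings). Of the 21 measured genes of germ cell death and DNA damage response, 9 were at least 2-fold higher and 0 lower, and ced-1, the receptor by which sheath cells engulf dying germ cells, stood at 4692 in the control and 1535 in the young adult (1.61). With equal read totals the medians of the stem cell, meiosis, germ granule and germ cell death lists lay between 0.23 and 0.51, and 2, 1, 5 and 1 of their genes passed 2-fold. Over all measured genes 18.2% were at least 2-fold higher. The main medians of the meiosis and germ granule lists lay under the upper quartile of all measured genes, 0.83.

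Histone genes were higher on day 3, beside the rRNA and small RNAs described above, which differed the same way. The 66 listed replication-dependent histone genes, whose mRNA ends in a stem-loop and usually has no poly(A) tail, summed to 14579 normalised reads in the control and 5407 in the young adult. Only 22 were measured, 17 of them at least 2-fold higher and 0 lower, with 9 forced by the minimum (median 3.53). Another 36 had 0 reads in both libraries, and many histone genes are identical copies whose reads may have been dropped. his-47 stood at 1539 in the control and 59.8 in the young adult (log2 fold 4.66), and his-1 at 132 in the control and 1.27 (1 read) in the young adult (5.87, interval 4.19 to 12.01). The 2 listed genes with the highest means differed less. One was his-74, an H3.3-type gene despite its place in this list, at 3422 in the control and 2417 in the young adult (0.50, of either sign over the scalings). Its reads are included in the sums of the list, and make up a large part of the young adult's. The other, his-37, stood at 722 in the control and 1159 in the young adult (-0.68).

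This histone list summed across the 5 libraries to 12196 in the control, 11248 to 12849 in the gld-1 RNAi libraries and 4715 in the young adult. The young adult library was thus the low one, as it was for rRNA, and the part of library make-up in the histone result was not tested. Replacement and linker histones, which are polyadenylated, were also mostly higher: 10 of 14 measured were at least 2-fold higher and 2 lower (his-70 and his-71), with 4 higher under equal read totals. The linker histone his-24 stood at 2682 in the control and 174 in the young adult (log2 fold 3.94), htz-1, the H2A.Z variant, at 17902 in the control and 4079 in the young adult (2.13), and his-72, an H3.3 gene, at 6183 in the control and 2713 in the young adult (1.19).

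**Figure D3:**
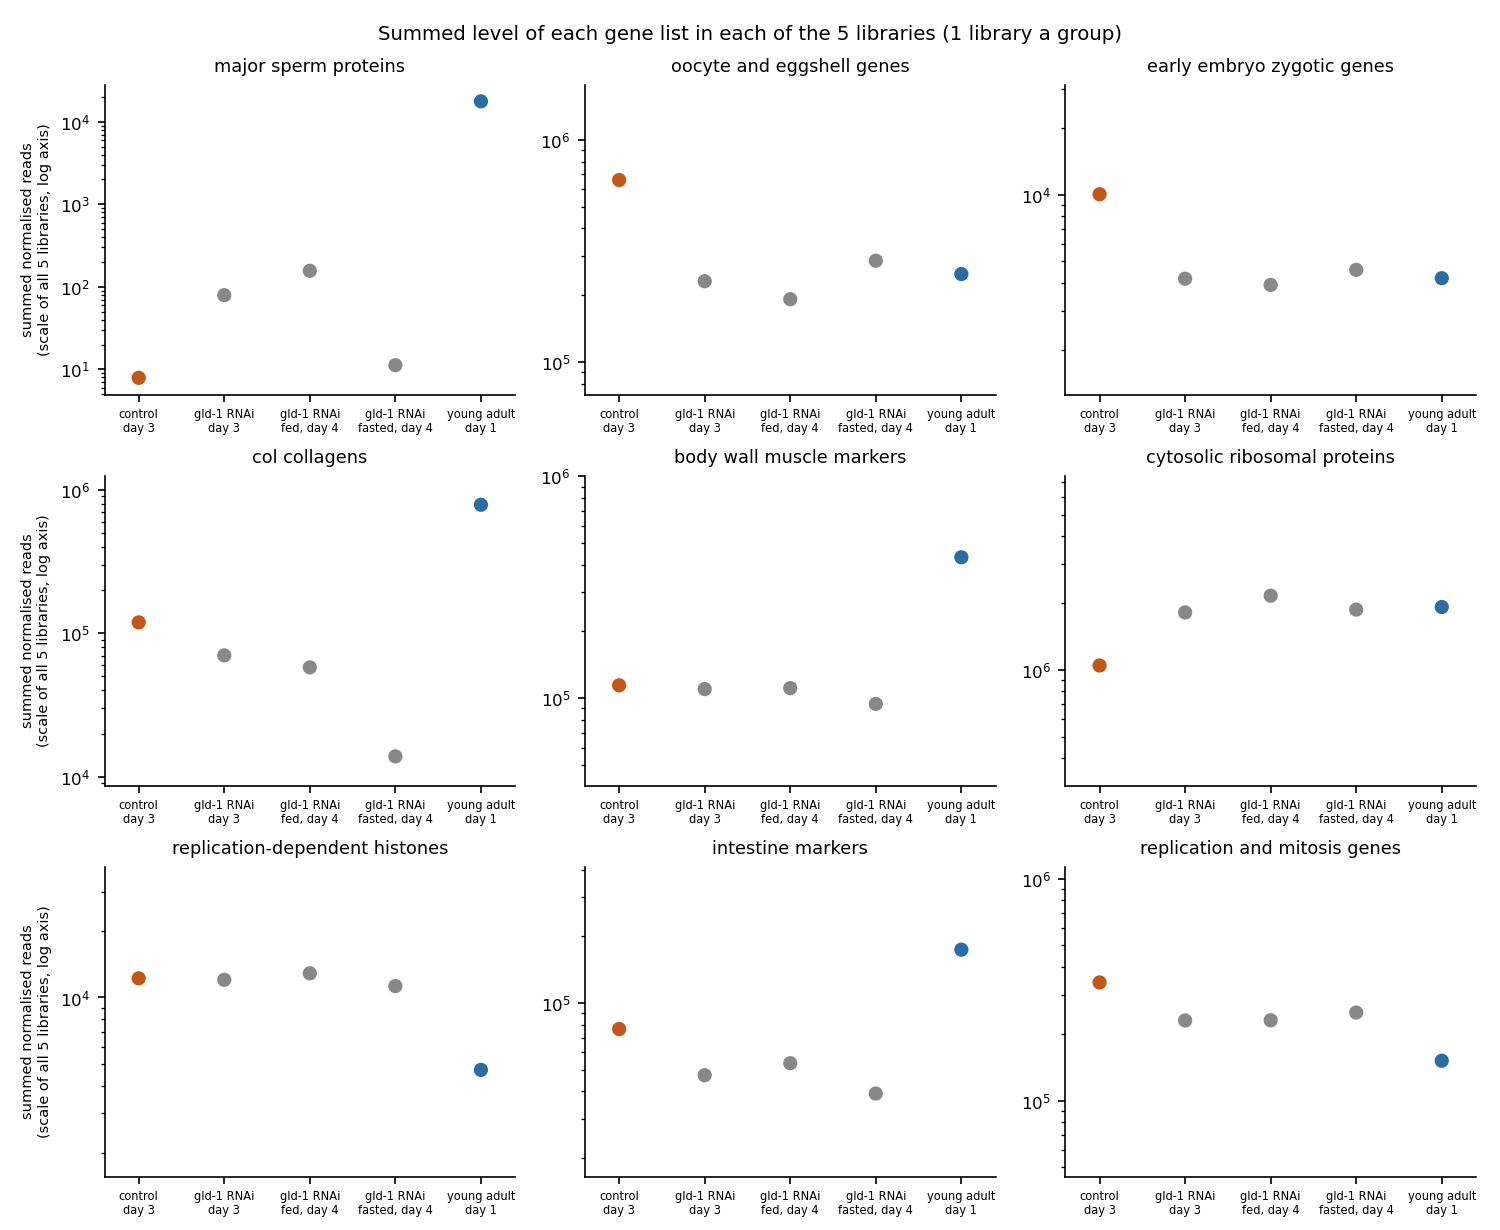
Summed normalised reads over all listed members of 9 gene lists (log axes, scale of all 5 libraries) in the control of day 3 (orange), 3 gld-1 RNAi libraries (grey) and the young adult of day 1 (blue), 1 point a library. The young adult is apart from the other 4 for msp, col, muscle, intestine and histone genes, and the control for oocyte, early embryo and ribosomal protein genes.

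Collagens of the cuticle were lower on day 3, many of them to near 0. The 156 listed col genes, which encode the short collagens secreted by the skin, summed to 142459 normalised reads in the control and 903346 in the young adult. That was 0.683% of the reads outside rRNA in the control and 4.77% in the young adult. Among the 103 measured, 91 were at least 2-fold lower, 44 of them forced by the minimum, and 6 were higher, 5 of them forced (median -4.95, or -5.00 with genes at 0 set to their bound).

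The lowest log2 folds of all named genes belonged to collagens. col-133 had 0 reads in the control and 10401 normalised reads in the young adult, at least 3309-fold lower, and col-161 had 0 in the control and 5382 in the young adult, at least 1712-fold lower. col-19, long used as the marker of the adult cuticle, stood at 2317 in the control and 40085 in the young adult (log2 fold -4.11), so it was still well above the minimum on day 3. Per kilobase of exon, col-124 was among the 6 highest protein-coding genes of the young adult library, with 3429 normalised reads per kb in the control and 78767 in the young adult (log2 fold of the level -4.52). col-122 differed less, at 21190 in the control and 56725 in the young adult (-1.42). Copies of collagen genes are alike in sequence, so single values may include reads of others.

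The 6 col genes at least 2-fold higher in the control were col-165, col-183, col-74, col-95, col-158 and col-43. col-165 had 319 normalised reads in the control and 0 reads in the young adult, at least 83.4-fold higher. col-95, chosen after its values were seen, was the most abundant of the 6, at 10532 in the control and 299 in the young adult (log2 fold 5.13). Across the 5 libraries col-95 stood at 8810 in the control, 6402 in gld-1 RNAi of day 3, 4656 in the fed library, 515 in the fasted one and 261 in the young adult. col-165 was different: it stood at 267 in the control and at 8.02 or less in each of the other 4.

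The collagens named for body shape (dpy, rol, sqt and bli) split further. Of 20 measured, 13 were at least 2-fold lower, 12 of them forced by the minimum, and 3 were higher, with 1 forced. bli-6 had 2 reads in the control and 4776 normalised reads in the young adult (log2 fold -10.59, interval -14.20 to -9.30), and dpy-5 4.19 in the control and 3506 in the young adult (-9.40). dpy-14, a collagen known from embryos, lay on the other side, at 744 in the control and 6.36 in the young adult (6.66). Cuticlins and moulting genes were less uniform, with 18 of 40 past 2-fold on the lower side and 2 on the higher (median -0.88). In all, 6 were forced by the minimum, and the 72 listed genes summed to 43010 in the control and 43145 in the young adult. The moulting gene mlt-10 stood at 206 in the control and 471 in the young adult (-1.19), while egg-6, a leucine-rich repeat protein of the outer matrix, stood at 14608 in the control and 5532 in the young adult (1.40).

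Hedgehog-related and patched-related genes, many of them active in the skin, were lower for most measured members. Of 41 measured, 26 were at least 2-fold lower, 11 of them forced by the minimum, and 2 were higher (median -1.48). grd-6 stood at 3.14 (3 reads) in the control and 946 in the young adult (log2 fold -7.84, interval -10.51 to -6.68). The sum over the 86 listed genes was 1.15 times as high in the control, a log2 fold of 0.20 that turned to -0.36 with equal read totals and -0.09 with equal upper quartiles. Its 2 largest parts on the higher side came from the patched homologue ptc-1, needed in the germ line, at 23662 in the control and 9054 in the young adult (1.39), and from ptr-2 at 9648 in the control and 3489 in the young adult (1.47).

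**Figure D4:**
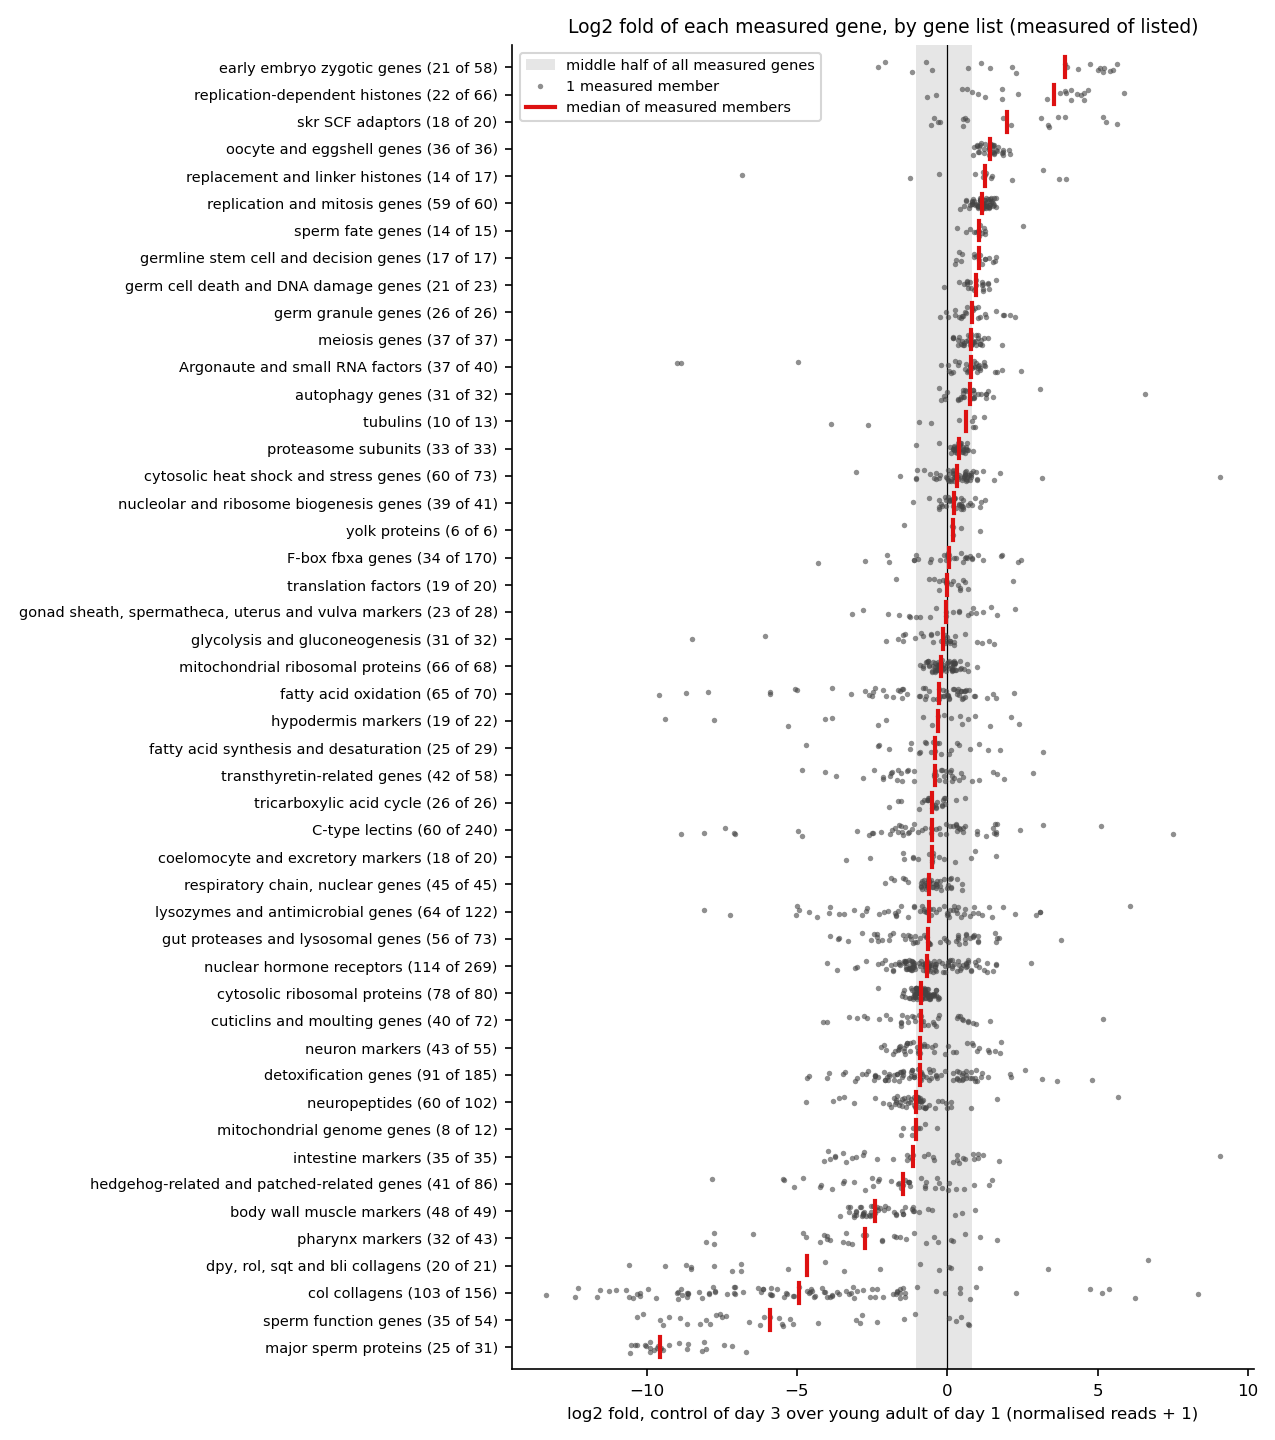
Log2 fold, control of day 3 over young adult, of each measured member (grey points) of 48 gene lists with at least 5 measured members, ordered by median (red). The grey band runs between the quartiles of all measured genes, from -1.04 to 0.83. The medians of the major sperm protein, sperm function, collagen, muscle, pharynx, hedgehog-related, intestine, mitochondrial genome and neuropeptide lists lie to its left. Those of the embryo, histone, skr, oocyte, replication, sperm fate, stem cell and germ cell death lists lie to its right.

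Muscle genes were lower on day 3 as a block. Of 48 measured body wall muscle markers, 42 were at least 2-fold lower, none of them forced by the minimum, and 0 were higher (median -2.42). They summed to 136709 normalised reads in the control and 495289 in the young adult, 0.656% of the reads outside rRNA in the control and 2.61% in the young adult. unc-54, the main myosin heavy chain of body wall muscle, stood at 7561 in the control and 64647 in the young adult (log2 fold -3.10, interval -3.13 to -3.06). dim-1, an immunoglobulin-domain muscle protein, stood at 745 in the control and 8926 in the young adult (-3.58), and the myosin light chain mlc-1 at 1659 in the control and 16568 in the young adult (-3.32). The 3 members above 0 were pat-3, act-2 and unc-60, all known outside muscle as well, and the actin act-2 stood at 29226 in the control and 20813 in the young adult (0.49, of either sign over the scalings).

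The muscle list summed across the 5 libraries to 114363 in the control, 94353 to 111107 in the gld-1 RNAi libraries and 431880 in the young adult. The 4 older libraries thus lay close together and the young adult alone was high. The pharynx markers were lower too: of 32 measured, 24 were at least 2-fold lower, 10 of them forced by the minimum, and 2 higher (median -2.75), and the 43 listed genes summed to 8117 in the control and 30968 in the young adult. The pharyngeal myosins myo-2 and myo-1 stood at 380 and 410 in the control and at 6532 and 6659 in the young adult (log2 folds -4.10 and -4.02). abu-15 and abu-1, genes of the abu family, had 0 reads each in the control and 260 and 215 normalised reads in the young adult, at least 82.6-fold and 68.4-fold lower.

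**Figure D5:**
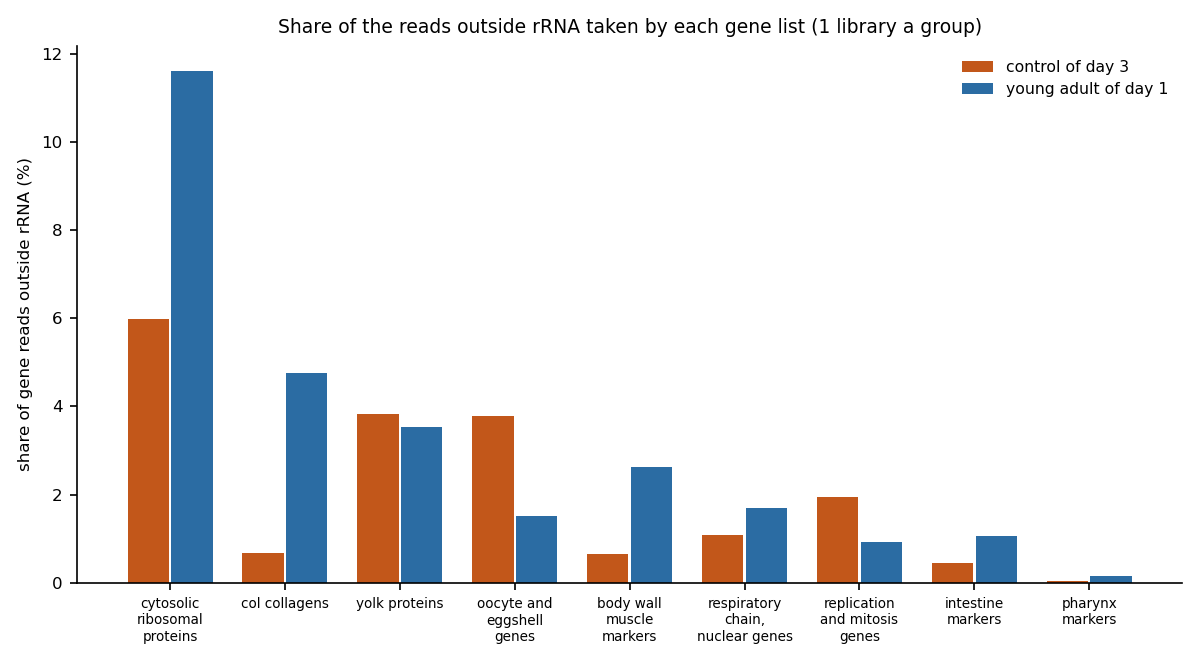
Share of the gene reads outside rRNA (%) taken by all listed members of 9 gene lists in the control of day 3 (orange) and the young adult of day 1 (blue), 1 library a group. Oocyte and replication genes took a larger share in the control, and ribosomal proteins, collagens and muscle, gut and pharynx genes in the young adult.

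The intestine gave a mixed picture. Of 35 markers, all measured, 18 passed 2-fold on the lower side and 5 on the higher (median -1.16), and they summed to 91425 normalised reads in the control and 199865 in the young adult. Genes of the absorptive surface were among the lower ones: the peptide transporter pept-1 stood at 189 in the control and 2945 in the young adult (log2 fold -3.96), and the acid phosphatase pho-1 at 94.3 in the control and 1640 in the young adult (-4.11). elt-2, the factor that maintains intestinal identity, differed less, at 113 in the control and 195 in the young adult (-0.78). The gut proteases were lower in 23 of 56 measured genes and higher in 8, with 4 forced by the minimum in all. The cathepsin-like cpr-5 stood at 1116 in the control and 16612 in the young adult (-3.89), but the aspartyl protease asp-6 was level, at 16500 in the control and 16244 in the young adult (0.02, of either sign over the scalings).

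Yolk protein genes, which the intestine transcribes for the oocytes, had no common direction. Of the 6 vit genes 1 was at least 2-fold higher, 1 lower and 4 within, and their median of 0.17 turned to -0.38 with equal read totals and to -0.12 with equal upper quartiles. vit-5 stood at 156648 in the control and 73678 in the young adult (log2 fold 1.09), and vit-1 at 16156 in the control and 43822 in the young adult (-1.44). vit-2 was close to level, at 263306 in the control and 233520 in the young adult (0.17, of either sign over the scalings). vit-3, vit-4 and vit-6 lay between 0.14 and 0.45, also of either sign over the scalings, and near-identical copies such as vit-3 and vit-4 may share reads.

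Neuronal genes were lower for part of the list. Of 43 measured markers, 19 passed 2-fold on the lower side and 6 on the higher (median -0.90), beside 25.7% lower and 18.2% higher over all measured genes. The sum over the listed genes was 1.28 times as high in the control, a log2 fold of 0.35 that turned to -0.20 with equal read totals. The acetylcholinesterase ace-2 stood at 102 in the control and 472 in the young adult (log2 fold -2.20), and unc-25, which makes GABA, at 80.7 in the control and 355 in the young adult (-2.12). tdc-1, the tyrosine decarboxylase of tyramine neurons and also of gonadal sheath cells, lay on the other side, at 9070 in the control and 2688 in the young adult (1.75). The pan-neuronal unc-119 stood at 277 in the control and 155 in the young adult (0.83), within 2-fold. Of 60 measured neuropeptide genes, 35 passed 2-fold on the lower side and 2 on the higher (median -1.05), with 8 forced by the minimum in all. The lower ones numbered 27 with the median of ratios of the 2 libraries, 28 with a pseudocount of 10 and 51 with equal read totals. The neuropeptide gene nlp-24 stood at 102 in the control and 2678 in the young adult (-4.71).

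Markers of smaller tissues varied. Of the 23 measured genes of the gonad sheath, spermatheca, uterus and vulva, 4 were at least 2-fold higher, 7 lower and 12 within 2-fold. These shares were near the 18.2% higher and 25.7% lower of all measured genes. The median of -0.04 turned to 0.07 with the median of ratios of the 2 libraries. The lowest member was sth-1, a marker of the spermatheca, at 17.8 in the control and 169 in the young adult (log2 fold -3.18), while the highest lay at 2.25. Of the 18 measured genes of coelomocytes and the excretory system, 6 were lower, 1 higher and 11 within 2-fold. The lowest was the aquaporin aqp-8, at 106 in the control and 1100 in the young adult (-3.36). Of 19 measured hypodermis markers 7 were lower, 5 of them forced by the minimum, and 3 higher.

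Ribosomal protein genes were lower on day 3 without exception. Of the 80 listed, 78 were measured and all 78 lay below 0, 26 of them at least 2-fold lower (median -0.87, range -2.30 to -0.29). With equal read totals 71 passed 2-fold as lower, and with equal upper quartiles 54 did. They summed to 1249330 normalised reads in the control and 2198990 in the young adult, 5.99% of the reads outside rRNA in the control and 11.6% in the young adult. rla-0, a stalk protein of the large subunit, stood at 28405 in the control and 67067 in the young adult (log2 fold -1.24), and rpl-3 at 54225 in the control and 92361 in the young adult (-0.77). rpl-11.2 was lowest, at 2566 in the control and 12674 in the young adult (-2.30).

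Here the control was the library apart. Across the 5 libraries the ribosomal protein genes summed to 1045120 in the control, 1811420 to 2156180 in the gld-1 RNAi libraries and 1917460 in the young adult. Of 66 measured mitochondrial ribosomal proteins 0 were past 2-fold either way (median -0.20), with 40 below 0, and 13 were lower with equal read totals. The median of the nucleolar genes, many of them for building ribosomes, was 0.22 and turned to -0.33 with equal read totals, and that of the translation factors lay between -0.56 and 0.10 over the scalings. The elongation factor eef-1A.1 was the highest protein-coding gene per kilobase in both libraries, at 140158 normalised reads per kb in the control and 144719 in the young adult, a difference of either sign over the scalings. Proteasome subunits lay within 2-fold in 32 of 33 cases (median 0.38, but -0.18 with equal read totals).

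Genes of the respiratory chain lay mostly below 0 on day 3. Of 45 nuclear genes of the respiratory chain, 37 lay below 0 and 6 were at least 2-fold lower (median -0.61), with atp-2, of the ATP synthase, at 44560 in the control and 58269 in the young adult (log2 fold -0.39). Over all measured genes a larger share, 25.7%, was at least 2-fold lower, though the median was 0.19. With equal read totals 27 of the 45 passed 2-fold as lower, beside 3997 of 10978 measured genes. All 8 measured genes of the mitochondrial genome lay below 0 with a median of -1.06, and 4 passed 2-fold (7 with equal read totals). The lowest was MTCE.25 at 1932 in the control and 5571 in the young adult (-1.53), ND6, a subunit of complex I, stood at 192 in the control and 531 in the young adult (-1.46), and the highest was COX3, a subunit of cytochrome c oxidase, at 13103 in the control and 16776 in the young adult (-0.36). Of 26 genes of the tricarboxylic acid cycle 3 were lower, also a smaller share than over all genes, and 0 higher. With equal read totals 14 were lower. icl-1, of the glyoxylate shunt, stood at 4674 in the control and 14756 in the young adult (-1.66).

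Among 65 measured genes of fatty acid oxidation, 23 were at least 2-fold lower, 9 of them forced by the minimum, and 4 higher (median -0.30). acdh-1, an acyl-CoA dehydrogenase of propionate breakdown, stood at 3224 in the control and 29911 in the young adult (log2 fold -3.21), while acs-13, an acyl-CoA synthetase, stood at 19796 in the control and 7974 in the young adult (1.31). The lowest members, acdh-8 and acs-18, had 0 reads in the control and 769 and 414 normalised reads in the young adult, at least 245-fold and 132-fold lower. Of 31 measured genes of glycolysis and gluconeogenesis, 8 were lower, a share close to the 25.7% of all genes, and 3 higher. The paralogues pck-3 and pfk-1.2 were at or near 0 in the control (0 and 2 reads) and at 356 and 206 normalised reads in the young adult, whereas pck-2 stood at 16474 in the control and 24110 in the young adult (-0.55). pygl-1, glycogen phosphorylase, was higher, at 40566 in the control and 15646 in the young adult (1.37). Fatty acid elongases were among the lower genes of lipid synthesis, with elo-2 at 694 in the control and 3444 in the young adult (-2.31).

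Genes of stress and defence held some of the largest differences upward, though their lists had no common direction. mtl-1, a metallothionein of the intestine, had the highest log2 fold of all named genes: it stood at 1214 normalised reads in the control and 1.27 (1 read) in the young adult (9.06, interval 7.42 to 15.20). lys-7, a lysozyme of the gut's defence, stood at 20286 in the control and 300 in the young adult (6.07, interval 5.89 to 6.27). Across the 5 libraries lys-7 was at 16970 in the control, 14211 in gld-1 RNAi of day 3, 16258 in the fed library, 1434 in the fasted one and 262 in the young adult, so the fasted library was the other low one. Of 64 measured lysozyme and antimicrobial genes, 26 were lower, 11 of them forced by the minimum, and 10 higher (median -0.63). The sum over the 122 listed genes was 1.13 times as high in the control. Its log2 fold of 0.17 turned to -0.38 with equal read totals.

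Of 60 measured heat shock and stress genes, 5 were at least 2-fold higher and 5 lower, and the median of 0.32 turned to -0.25 with equal read totals. lea-1, a late embryogenesis abundant protein tied to survival of drying, stood at 37189 in the control and 4189 in the young adult (log2 fold 3.15). hsp-90 and hsp-1, the general chaperones, lay at 0.34 and 0.23, both of either sign over the scalings. hsp-16.2, a small heat shock protein, was under the minimum at 43.0 in the control and 22.9 in the young adult, and sod-3, a superoxide dismutase and DAF-16 target, at 37.7 in the control and 45.8 in the young adult with an interval of -0.99 to 0.43. daf-16 itself, the FOXO factor of the insulin pathway, stood at 3975 in the control and 3078 in the young adult (0.37, or -0.19 with equal read totals).

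C-type lectins, secreted or membrane proteins of the gut and other tissues, lay on both sides: 25 of 60 measured were lower, 10 of them forced by the minimum, and 11 higher, with 4 forced. Over all measured genes 25.7% were lower and 18.2% higher. The 240 listed lectins summed to 88780 in the control and 57725 in the young adult, 1.54 times as high in the control. The log2 fold of this sum was 0.62, and 0.06 with equal read totals. clec-266 stood at 1787 in the control and 8.91 in the young adult (interval 6.60 to 8.97), and clec-87 at 38370 in the control and 13248 in the young adult (log2 fold 1.53). clec-79 and clec-151 had 0 reads in the control and 463 and 272 normalised reads in the young adult, at least 147-fold and 86.6-fold lower. Of 91 measured genes of small molecule detoxification 42 were lower and 9 higher (median -0.91), with 8 forced by the minimum in all. Among them ugt-30, a UDP-glucuronosyltransferase, stood at 10.5 in the control and 289 in the young adult (-4.66).

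Autophagy genes were higher in part. Of 31 measured, 9 were at least 2-fold higher and 0 lower (median 0.74). Over all measured genes 18.2% were at least 2-fold higher, and the upper quartile, 0.83, lay above the median of this list. The highest were the cargo receptors of embryos: sepa-1, which brings P granule proteins to autophagy, stood at 935 in the control and 8.91 in the young adult (log2 fold 6.56), and epg-2 at 1489 in the control and 177 in the young adult (3.07). With equal read totals 2 of the 31 passed 2-fold as higher, a share close to the 663 of 10978 measured genes. Among fixed markers of the list, lgg-1, the Atg8 homologue, stood at 5989 in the control and 6112 in the young adult (-0.03, of either sign over the scalings), and hlh-30, the TFEB homologue, at 1253 in the control and 1441 in the young adult (-0.20). Among all 5 libraries sepa-1 stood at 782 in the control, 69.0 to 90.8 in the gld-1 RNAi libraries and 7.77 in the young adult.

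Ubiquitin ligase adaptors of the skr family, which are relatives of Skp1, differed among themselves. Of 18 measured, 10 were at least 2-fold higher, 4 of them forced by the minimum, and 0 lower. The median was 1.98, and 0.57 with a minimum mean of 200, where 11 were measured and 4 higher. skr-12 stood at 303 in the control and 5.09 in the young adult (log2 fold 5.64) and skr-8 had a log2 fold of 5.27, whereas skr-2 lay at 0.57 and skr-1 at 0.53, the last of either sign over the scalings. Their F-box partners of the fbxa family had a median of 0.05, or -0.51 with equal read totals, with 6 of 34 higher and 7 lower. These shares were not above the 18.2% higher and 25.7% lower of all measured genes. Others among the 10 highest named genes were dct-8 at 467 in the control and 2.55 (2 reads) in the young adult (7.05, interval 5.66 to 10.57), scl-20 at 289 in the control and 0 reads in the young adult, at least 75.7-fold higher, and dsl-2, of the DSL family of Notch ligands, at 569 in the control and 7.64 in the young adult (6.04).

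Of 114 measured nuclear hormone receptors 43 were lower, 10 of them forced by the minimum, and 9 higher, beside 25.7% lower and 18.2% higher over all measured genes. Their median was -0.67, and 0.21 with a minimum mean of 200. nhr-114, active in the intestine, stood at 117 in the control and 1509 in the young adult (log2 fold -3.67), and nhr-49, a regulator of fat use, at 2182 in the control and 2096 in the young adult (0.06, of either sign over the scalings). Of 42 measured transthyretin-related genes 18 were lower and 5 higher, with 5 forced by the minimum in all, and ttr-14 stood at 104 in the control and 3019 in the young adult (-4.85). Of 10 measured tubulins 1 was higher and 2 lower: tba-1 stood at 26982 in the control and 11666 in the young adult (1.21), and the lower ones, tba-9 and tba-4, lay at -3.88 and -2.64. Of the 38 insulin-like peptide genes 2 were measured, ins-7 and ins-17, both within 2-fold.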

How the data were processed

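Whole-animal RNA was sequenced, described as mRNA in one label and as total RNA in another. The authors aligned and counted reads with TopHat, HTSeq and DESeq, per the submitters' processing notes, with versions, genome build and strand setting not given in the sources used here. The deposited tables, 5 pairwise comparisons, hold signal values per gene: per the file headers they are base means of each library, that is counts divided by a size factor of the pair. With 1 library a group, each mean is 1 library's value. Dividing by the smallest step gave whole reads for 100% of values within 0.1 read, with 1 read worth 1.04774 in the control and 1.27258 in the young adult, after the young adult's table was multiplied by 1.10208 so that the gld-1 RNAi library, present in 4 of 5 tables, had equal values in each. The deposited log2 and p-value columns were not used, since they rest on no replicates.

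From these values the mean over both libraries had to be at least 50, and the log2 fold was taken with a pseudocount of 1. Intervals are 95% Clopper-Pearson intervals on the 2 read counts and cover counting error only, not animals or libraries; they reached 0.41 to either side at 100 reads and 0.13 at 1000 reads in each library. Genes with 0 reads are given as bounds against a floor of 3 reads per library. No count model was fitted, and the computation was tested on simulated data. Of the identifiers, 44936 matched the Ensembl 115 annotation of WBcel235, used for names, classes and exon lengths, and 525 did not; no coordinates or sequences are printed. Members, 49 gene lists (28 names not found) and settings were chosen with earlier results of these data known. Genes were named by rule: the 10 highest and lowest with a mean of at least 100 and at most 2 per family, each list's 2 furthest and 2 most abundant members, and fixed markers. The genes alg-3, alg-4, his-70, his-71, col-43, col-74, col-95, col-158, col-183, spe-5, spe-44, spe-48, ssp-37, pat-3, unc-60, tba-4, tba-9, ins-7, ins-17, end-1, end-3, med-1 and med-2 were named after their values were seen. Python 3.11.15, NumPy 2.4.6, pandas 2.3.3, SciPy 1.17.1 and Matplotlib 3.10.9 were used. Other scalings, pseudocounts and minimum levels were tried as alternatives.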

Additional observations from a re-analysis of the deposited data

How the results depend on the processing

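No paired analysis was possible because each group has 1 library, and no library could be left out. The 1966 genes at least 2-fold higher in the control became 663 with equal read totals and 1116 with equal upper quartiles. The 2781 lower genes became 4532 with a minimum mean of 10 and 1271 with a minimum of 200, where the higher ones numbered 1599. On the main scale the surplus of lower genes thus lay among genes of low level. These minimums were not tried with the other scalings, and fewer or more genes are tested by construction. The other scalings and pseudocounts kept both counts within 1.5 times. Of 48 list medians, 21 moved past their tolerance with equal totals, 11 with equal upper quartiles and 7 with equal totals outside rRNA. Of the 18 list medians past 2-fold, 0 changed sign under a scaling, and 7 of the others did; of 140 named genes past 2-fold 0 did, and 30 of the others did. The medians of the C-type lectins and nuclear hormone receptors turned positive, at 0.20 and 0.21, with a minimum of 200. Calls of lists with medians near 2-fold change with the scaling: with equal read totals the higher oocyte genes number 10 in place of 32 and the replication genes 3 in place of 44. The median of the skr genes was 0.57 with a minimum of 200, and the embryo list ranked under the replication-dependent histones with equal totals (1.73 and 3.20) and with a minimum of 200 (2.16 and 3.75), and also with a pseudocount of 10. Reads set what single values can show: at 50 reads in each library the counting interval reached 0.60 to either side, and counting only genes whose interval lay wholly beyond 2-fold kept both counts within 1.5 times.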

Other observations

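Name families that stand in none of the lists were ranked by the median of their measured members after the values were seen, so they are a description. The families at the low end were small. The 8 nsph genes summed to 272 normalised reads in the control and 8893 in the young adult, and the 10 nspd genes to 24.1 in the control and 5122 in the young adult; nsph and nspd are nematode-specific peptide families. The 9 ttbk genes, of the tau tubulin kinase type, summed to 377 in the control and 3187 in the young adult, and the 7 idpc genes to 76.5 in the control and 2115 in the young adult. The scrm family summed to 702 in the control and 953 in the young adult, with 1 gene higher, and idpp to 321 in the control and 1904 in the young adult. The wht family had a median of -2.83, but its sum was higher in the control, at 4041 against 3222 in the young adult. After these in rank, the 9 hrg genes, named for their response to haem, summed to 2865 in the control and 14599 in the young adult.

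At the high end stood the phf, ule and lido families, with medians of 1.45, 1.38 and 1.30. Of 11 measured lido genes, 8 were at least 2-fold higher and 1 lower. Next came swsn, with a median of 1.28. All 7 swsn genes, subunits of the SWI/SNF chromatin remodelling complex, were at least 2-fold higher and summed to 40135 in the control and 14762 in the young adult. The ari family, with a median of 1.21, ranked between the mes and taf families. Of the 17 taf genes, most for subunits of the general transcription factor TFIID, 10 were at least 2-fold higher and 0 lower (median 1.18). The 5 mes genes, named for maternal-effect sterility and in part for silencing chromatin in the germ line, summed to 13427 in the control and 5783 in the young adult, with 4 of 5 at least 2-fold higher.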
